A study of Homo sapiens with 10 samples.

Results

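The expression of 31 genes of cholesterol synthesis and of its control by the sterol regulatory element-binding proteins (SREBPs) was examined in MCF10A cells, an immortalized and non-tumorigenic human mammary epithelial line. The genes were taken by symbol from a list of the mevalonate, squalene and sterol steps, the SREBP factors and their partners, and fatty acid genes that SREBPs are known to drive. All 31 were found, among 26256 genes in the table of untreated cells and among 55736 in the table of Nutlin-3a-treated cells, and all 31 passed the filter on low counts, among 14376 and 13529 genes tested. RNA-seq libraries of poly(A)-selected RNA were made to ask how transcription changes when these cells are transformed by oncogenic HRas, and how parental cells respond when p53 is activated.

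The untreated experiment held 2 libraries of parental cells (MCF10A) and 2 of cells carrying H-RAS Gv12 (G12V). G12V cells came from a transduction with a lentiviral HRas V12 vector followed by hygromycin selection, and nothing states that they are 1 clone. The treated experiment held 3 libraries of parental cells given 10 µM Nutlin-3a for 4 h and 3 given its vehicle DMSO for 4 h, so no transformed cells received the drug. All cells, controls included, grew in DMEM/F-12 with 5% horse serum, 20 ng/ml EGF, 0.01 mg/ml insulin, 500 ng/ml hydrocortisone and 100 ng/ml cholera toxin. Serum, a source of sterols, and insulin, an activator of the SREBP pathway, were therefore present in every group. Replicates are biological according to the labels, which do not say what separated them.

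Cholesterol is built from acetyl-CoA through mevalonate, isoprenoid units, squalene and lanosterol. SREBP-2, encoded by SREBF2, drives most genes of this route, and SREBP-1, encoded by SREBF1, drives mainly genes of fatty acid synthesis. Both precursors sit in the endoplasmic reticulum bound to SCAP, which carries them to the Golgi for cleavage when sterols are low, while INSIG proteins hold the complex back when sterols are high. INSIG1 is itself an SREBP target, so the route contains a feedback loop.

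The upstream sequences of 5 of the genes are shown as a description, and no expression result below rests on them. INSIG1 and FADS1 were the genes that passed the test in G12V cells. HMGCS1 and MVD differed widely between libraries of the same group, and SREBF2 was the member with a sterol response element of the letters searched. The sequences are the 250 bases before the annotated start in RefSeq on GRCh38.p14, a build other than the hg19 of the count tables. They are written 5′ to 3′ on the strand of the gene. Capitals mark 3 motifs on either strand, namely TCACNCCAC (a sterol response element), CCAAT (bound by NF-Y, a common partner of SREBPs) and CACGTG (an E-box). The windows lie at chr7:155297628-155297877 on the plus strand for INSIG1, chr11:61817004-61817253 on the minus strand for FADS1, chr5:43313413-43313662 on the minus strand for HMGCS1, chr16:88663092-88663341 on the minus strand for MVD and chr22:41832855-41833104 on the plus strand for SREBF2.
INSIG1: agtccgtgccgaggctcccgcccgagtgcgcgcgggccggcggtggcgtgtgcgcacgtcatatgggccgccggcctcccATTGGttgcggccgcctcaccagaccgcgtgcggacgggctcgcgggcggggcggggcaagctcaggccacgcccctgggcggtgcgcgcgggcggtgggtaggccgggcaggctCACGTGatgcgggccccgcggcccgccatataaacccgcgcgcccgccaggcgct
FADS1: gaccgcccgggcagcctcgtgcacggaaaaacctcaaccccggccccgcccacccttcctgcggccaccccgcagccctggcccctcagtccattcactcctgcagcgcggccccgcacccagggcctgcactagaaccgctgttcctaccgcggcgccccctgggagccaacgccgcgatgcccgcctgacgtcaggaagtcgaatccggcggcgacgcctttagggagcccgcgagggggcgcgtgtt
HMGCS1: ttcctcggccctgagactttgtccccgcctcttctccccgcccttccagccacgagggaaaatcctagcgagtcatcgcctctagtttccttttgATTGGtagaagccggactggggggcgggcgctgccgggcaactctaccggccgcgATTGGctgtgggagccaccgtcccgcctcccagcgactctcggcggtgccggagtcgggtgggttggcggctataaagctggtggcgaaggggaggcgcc
MVD: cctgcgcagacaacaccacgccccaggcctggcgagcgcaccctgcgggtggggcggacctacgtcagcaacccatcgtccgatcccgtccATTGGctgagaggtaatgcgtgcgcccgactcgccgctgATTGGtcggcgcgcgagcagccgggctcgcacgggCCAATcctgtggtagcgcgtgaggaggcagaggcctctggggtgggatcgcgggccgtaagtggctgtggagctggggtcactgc
SREBF2: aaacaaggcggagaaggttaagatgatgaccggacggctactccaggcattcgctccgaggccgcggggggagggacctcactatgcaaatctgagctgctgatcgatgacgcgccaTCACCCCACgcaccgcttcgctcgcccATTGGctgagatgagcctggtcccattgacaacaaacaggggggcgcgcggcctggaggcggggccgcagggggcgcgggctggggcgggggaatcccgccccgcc

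Of the 31 genes, 27 had a promoter entry in the RefSeq table, of 250 bases before and 50 bases after each start. CCAAT was found for 20 of these 27 genes (74.1%), against 39.7% of all 27305 genes with an entry and 42.1% of the 15843 protein-coding ones. CACGTG was found for 4 of 27 (14.8%; INSIG1, LSS, SC5D and SCAP), against 8.77% of all genes. TCACNCCAC was found for SREBF2 alone (3.7%), against 1.39% of all genes. The FADS1 window held none of the 3. A gene with more than 1 entry was counted once if any entry held the letters, and the letters found are a description and not evidence of binding.

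The libraries held 21538593 to 23683975 counts in the untreated experiment and 15453226 to 17378734 in the treated one. HRAS, the transduced gene, was at 69.3 ± 4.77 in MCF10A and rose to 573 ± 82.0 in G12V (SD, n = 2) in CPM, that is counts scaled by library size to the same total, and its log2 fold change was 3.05 (adjusted p = 0.00165, edgeR's quasi-likelihood test). All 6 epithelial markers examined, KRT5, KRT14, KRT17, CDH1, EPCAM and DSP, fell in G12V cells, and their summed level was 6915 and 8727 CPM in MCF10A against 1078 and 1406 in G12V. KRT14 and KRT17, keratins of basal mammary epithelium, and CDH1, the epithelial cadherin, had means of 0.110, 0.992 and 0.481 CPM in G12V, so the label epithelial was not borne out by these 3 genes there. Of 5 mesenchymal markers, CDH2, SPARC and ZEB1 rose and FN1 fell, and the summed level of the 5 was 1658 to 2082 CPM in MCF10A and 1610 to 2225 in G12V. Among 6 markers of leukocytes, endothelium and adipocytes, 4 stayed under 1 CPM in every untreated library and CD68 rose from 12.2 to 55.0 CPM. The part of these shifts in the results below was not tested. In bulk RNA, fewer cells of a kind and less RNA per cell cannot be told apart.

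In G12V cells 2 of the 31 genes rose and none fell. FADS1, the delta-5 fatty acid desaturase, rose 4.76-fold and INSIG1, the sterol-sensing retention protein, rose 3.83-fold. The listed enzymes between acetyl-CoA and cholesterol did not pass the test, and neither did SREBF1, SREBF2 or SCAP. A gene was called when its adjusted p was under 0.05, with p-values adjusted over all 14376 genes, and its log2 fold change was beyond 0.5 in size. Across all genes tested 5.01% were called higher and 5.95% lower, so the 31 genes were called about as often as genes at large in the first case and not at all in the second.

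FADS1 was at 97.2 and 64.3 CPM in the MCF10A libraries and at 325 and 444 CPM in the G12V libraries. Both G12V values lay far above both MCF10A values. The log2 fold change was 2.25 ± 0.29 (SE, n = 2 against 2; 95% confidence interval 1.54 to 2.97; adjusted p = 0.00816, edgeR's quasi-likelihood test). FADS1 lies at chr11:61567097-61584529 (hg19, minus strand) and its start overlaps that of FADS2, the delta-6 desaturase that precedes it in the same route, on the opposite strand. Since the strand setting of the counting is not given, reads in the shared stretch cannot be assigned to either gene from the table.

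FADS2 (chr11:61583675-61634826) was at 213 and 162 CPM in MCF10A and at 331 and 497 CPM in G12V. The groups did not overlap, but the log2 fold change of 1.14 ± 0.28 (95% confidence interval 0.47 to 1.82) did not pass, with an adjusted p of 0.0534 by edgeR's quasi-likelihood test. FADS2 did pass under 6 of 9 other settings of tool, scaling, filter, block or prior count, where its log2 fold change was about the same. The prior count alters the fitted fold change and not the test. The 5 Mb on either side of FADS1, with 190 other tested genes, had a median log2 fold change of -0.02.

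INSIG1 (chr7:155089486-155101945, plus strand) was at 111 and 81.3 CPM in MCF10A and at 249 and 488 CPM in G12V. All G12V values exceeded all MCF10A values, and G12V replicate 2 was at 1.96 times replicate 1. The log2 fold change was 1.94 ± 0.37 (SE, n = 2 against 2; 95% confidence interval 1.04 to 2.83; adjusted p = 0.0252, edgeR's quasi-likelihood test). INSIG2, its relative outside the list, was at 18.8 CPM in MCF10A and 17.6 in G12V (log2 fold change -0.10, adjusted p = 0.878 in the same test). Without MCF10A replicate 1 no gene of the whole table was called, these included. FADS1 then had a log2 fold change of 2.60 with an adjusted p of 0.0881 and INSIG1 one of 2.19 with 0.168, by edgeR's quasi-likelihood test on 1 against 2 libraries, where the lone library is assumed to vary like the G12V ones.

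**Figure D1:**
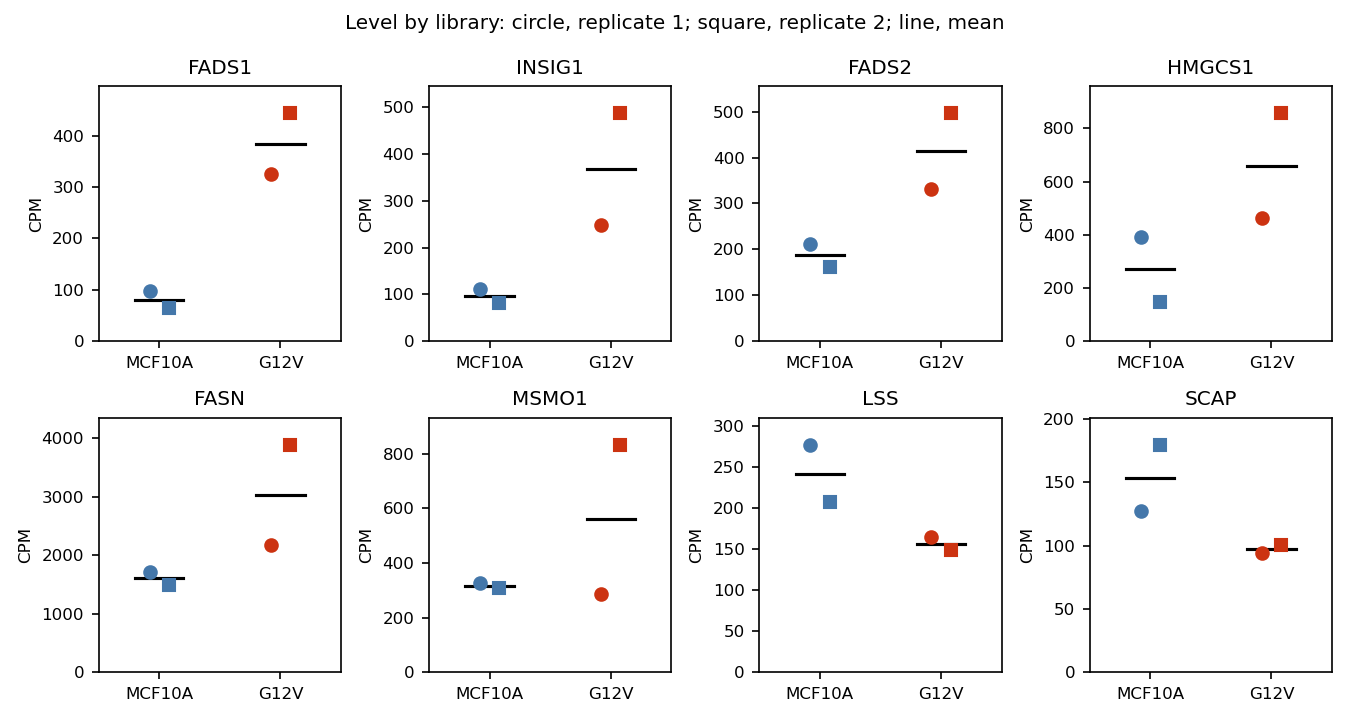
Level in CPM (vertical axes, each from 0) of 8 genes in the 2 MCF10A (blue) and 2 G12V (red) libraries, with replicate 1 as a circle, replicate 2 as a square and the group mean as a line. FADS1, INSIG1, FADS2, HMGCS1 and FASN are higher and LSS and SCAP lower in both G12V libraries, while MSMO1 is high in G12V replicate 2 alone.

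Among the 7 genes of the mevalonate steps none was called, and their median log2 fold change was 0.08 against -0.0011 over all genes tested. HMGCS1, the synthase that makes HMG-CoA, showed the greatest difference of the 7. It was at 393 and 148 CPM in MCF10A and at 463 and 857 CPM in G12V. The groups did not overlap, yet the MCF10A libraries already differed by more than their nearest gap to G12V, and the log2 fold change of 1.29 ± 0.52 had an adjusted p of 0.191 by edgeR's quasi-likelihood test. IDI1, which isomerizes isopentenyl diphosphate, and ACAT2, the cytosolic thiolase at the entry, had log2 fold changes of 0.40 and 0.52. FDPS, the farnesyl diphosphate synthase, had 0.08. Lower values were seen for MVK, the mevalonate kinase (-0.12), and PMVK, the phosphomevalonate kinase (-0.43), both with groups that did not overlap. MVD, the decarboxylase that follows, was also lower (-0.32).

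The 3 genes that make squalene and lanosterol split. FDFT1, the squalene synthase, was at 565 and 464 CPM in MCF10A and at 509.6 and 941 CPM in G12V, and SQLE, the squalene epoxidase, at 401 and 332 against 399 and 589.9. Each overlapped between groups. LSS, the lanosterol synthase, was at 277 and 207 CPM in MCF10A and at 164 and 149 CPM in G12V, lower in both transformed libraries (log2 fold change -0.63 ± 0.22, adjusted p = 0.136, edgeR's quasi-likelihood test).

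The 8 genes from lanosterol to cholesterol had a median log2 fold change of 0.05, and all 8 overlapped between groups. MSMO1, the sterol C4-methyl oxidase, had the greatest value of the 8 (0.82 ± 0.48, adjusted p = 0.359, edgeR's quasi-likelihood test). It was at 326 and 309 CPM in MCF10A and at 288 and 832 CPM in G12V, so that 1 library carried the difference. The other 7, CYP51A1, TM7SF2, NSDHL, HSD17B7, EBP, SC5D and DHCR7, lay between -0.08 and 0.14.

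Among the 5 genes of SREBP control and sterol transport, INSIG1 was the call. SREBF1 was at 174 and 171 CPM in MCF10A and at 192 and 169 CPM in G12V, and SREBF2 at 358 and 468 against 299.8 and 487, and for both the groups overlapped. Their log2 fold changes of 0.07 and -0.07 had 95% confidence intervals of -0.37 to 0.51 and of -0.81 to 0.67, which span differences in either direction. SCAP, the escort of the SREBPs, was at 127 and 179 CPM in MCF10A and at 94.4 and 101 CPM in G12V, lower in both (log2 fold change -0.65 ± 0.22, adjusted p = 0.127, edgeR's quasi-likelihood test). STARD4, a soluble sterol carrier, was at 50.3 and 35.5 CPM against 53.6 and 76.9 (0.60 ± 0.27, adjusted p = 0.231 in the same test).

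Of the 8 fatty acid and glycerolipid genes FADS1 was called, and the median log2 fold change was 0.30. FASN, the fatty acid synthase, was at 1714 and 1498 CPM in MCF10A and at 2183 and 3888 CPM in G12V. The groups did not overlap, but the log2 fold change of 0.92 ± 0.36 did not pass (adjusted p = 0.182, edgeR's quasi-likelihood test). The 102 other tested genes within 5 Mb of FASN on chromosome 17 had a median log2 fold change of 0.59, the highest such median around any of the 31 genes. The part of this regional shift in the FASN value was not tested. ACLY, the ATP citrate lyase, had 0.45, SCD, the stearoyl-CoA desaturase, 0.16, and ACACA, the acetyl-CoA carboxylase, 0.01. ELOVL6, an elongase, had -0.10 and LPIN1, a phosphatidate phosphatase, -0.33.

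At an unadjusted p under 0.05, 7 of the 31 genes passed, 5 higher (HMGCS1, INSIG1, FASN, FADS1 and FADS2) and 2 lower (LSS and SCAP), against 25.6% of all genes tested. DESeq2 called 5, all higher, against 7.73% of all genes called higher by it, and edgeR's exact test 3, all higher, against 8.53%. Of the 31 genes, 20 overlap no other gene of the untreated table, and among the others ACAT2, SREBF1 and TM7SF2 share stretches with TCP1, RAI1 and VPS51, which were themselves well counted, so their values are less certain.

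Over the whole list 6 genes did not overlap between groups and were higher in G12V (HMGCS1, INSIG1, STARD4, FASN, FADS1 and FADS2), against 27.5% of all genes tested. A further 5 did not overlap and were lower (MVK, PMVK, LSS, SCAP and LPIN1), against 27.4%. Both shares of the list were below those of all genes. The log2 fold change was above 0 for 21 genes and below 0 for 10, with a median of 0.08, and the median size was 0.33 against 0.36 over all genes.

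**Figure D2:**
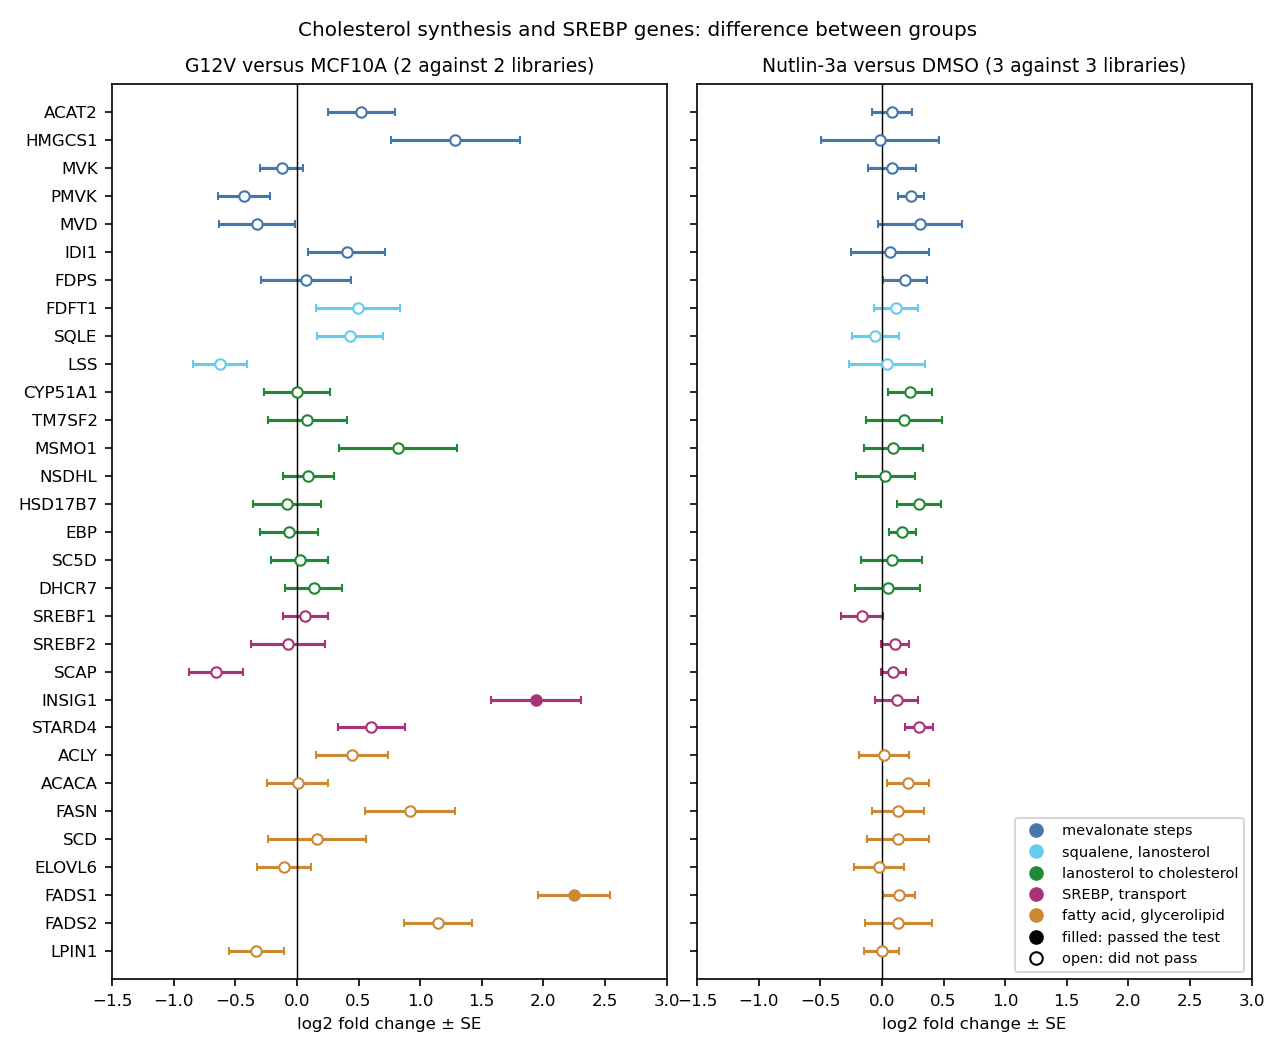
Log2 fold change (horizontal axes, ± SE from edgeR's quasi-likelihood fit) of the 31 genes in G12V against MCF10A cells (left, 2 libraries a group) and in Nutlin-3a against DMSO (right, 3 a group), coloured by role and filled where the gene passed the test. FADS1 and INSIG1 are the filled points on the left, and no point is filled on the right, where values run from -0.16 to 0.31.

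Of 57 further genes of the surrounding pathways, chosen by role, all were tested, and 2 rose and 5 fell in G12V cells. Across all genes tested 5.01% were called higher and 5.95% lower, so these counts were near the shares of genes at large. ME1, the cytosolic malic enzyme that supplies NADPH, rose from 49.6 to 135 CPM (log2 fold change 1.44, adjusted p = 0.0227) and DGAT2, which makes triglyceride, from 9.08 to 20.9 CPM (1.20, adjusted p = 0.0275), both by edgeR's quasi-likelihood test. Those that fell were ACACB, the mitochondrial acetyl-CoA carboxylase (log2 fold change -1.94), SCD5, a second stearoyl-CoA desaturase (-1.15), RABGGTA, a subunit of the Rab prenyltransferase (-0.82), ABCG1, a sterol exporter (-3.74), and SMPDL3A, a phosphodiesterase (-1.51), with adjusted p-values of 0.0150 to 0.0406 in that test. None of the 7 SREBP processing genes was called, the S1P and S2P proteases MBTPS1 and MBTPS2 included (log2 fold changes 0.09 and 0.59). The counts of higher and lower calls were 0 and 1 of 14 for the isoprenoid branch, 0 and 2 of 7 for sterol export, 0 and 0 of 9 for storage and transport, and 2 and 2 of 20 for other fatty acid genes.

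Within each group most of these genes differed between the 2 libraries in 1 direction, with replicate 1 higher in MCF10A and replicate 2 higher in G12V. The counts below take those directions. The ratio of the higher to the lower library ran from 1.00 (TM7SF2) to 2.65 (HMGCS1) in MCF10A and from 1.05 (MVD) to 2.89 (MSMO1) in G12V. MCF10A replicate 1 was above replicate 2 for 25 of the 31 genes, against 50.5% of all genes tested. G12V replicate 2 was above replicate 1 for 28, against 54.9%. Both held for 23 genes, against 17.9%, and G12V replicate 2 was the highest of the 4 libraries for 22, against 30.1%. The summed level of the list was 10186 and 8334 CPM in MCF10A and 9668 and 15899 CPM in G12V, so G12V replicate 1 lay between the MCF10A libraries. The median log2 ratio of MCF10A replicate 1 to 2 was 0.27 and that of G12V replicate 2 to 1 was 0.56, where over the genes shared by both tables the medians were 0.0004 and 0.07.

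Which genes passed depended on the libraries used. Leaving out G12V replicate 1 gave 5 calls (FADS1, FADS2, HMGCS1, INSIG1 and MSMO1), against 14.4% of all genes tested in that fit. Leaving out MCF10A replicate 1 gave 0, against 0% of all genes, so that fit says nothing particular to the list. FADS1 and INSIG1 were the 2 calls without MCF10A replicate 2 (against 7.8%) and without G12V replicate 2 (against 10.3%). The median over the list moved between -0.18 and 0.34 in these fits.

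After 4 h of Nutlin-3a none of the 31 genes was called by edgeR's quasi-likelihood test, where 0.155% of all 13529 genes tested were called higher and 0.0148% lower. The treatment acted on known p53 targets in the same libraries. MDM2, the target of the drug, rose from 113 to 656 CPM (log2 fold change 2.54, adjusted p = 0.00133) and CDKN1A, the cell cycle inhibitor p21, from 654 to 2916 CPM (2.16, adjusted p = 0.000516), both by edgeR's quasi-likelihood test. DESeq2 and edgeR's exact test also called 0 of the 31 genes, against 0.65% and 0.613% of all genes. At an unadjusted p under 0.05, 1 member gene passed (STARD4), against 3.42% of all genes.

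STARD4 was at 50.7, 46.2 and 53.7 CPM with DMSO and at 65.9, 56.6 and 63.0 CPM with Nutlin-3a. All treated values exceeded all control values by a small margin. The log2 fold change was 0.30 ± 0.11 (SE, n = 3 against 3; adjusted p = 0.9997, edgeR's quasi-likelihood test). PMVK was at 69.8, 69.9 and 75.4 CPM with DMSO and at 77.1, 92.1 and 84.2 CPM with Nutlin-3a, also without overlap (0.24 ± 0.11). These were the 2 genes higher without overlap, against 3.7% of all genes, and 0 were lower without overlap, against 4.38%.

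The log2 fold changes ran from -0.16 for SREBF1 to 0.31 for MVD. They were above 0 for 26 genes and below 0 for 5, with a median of 0.11 against 0.0066 over all genes. The labels state no pairing, but libraries of the same replicate number deviated together, so the numbers were also used as pairs. Within these pairs the median level of the list differed by 0.14, 0.06 and 0.08 on the log2 scale, each higher with Nutlin-3a. Between replicates of a treatment it varied with an SD of 0.27, which includes differences between numbers that both treatments share. Leaving out 1 library moved the median of 0.11 to between -0.06 and 0.28. Without Nutlin-3a replicate 3 the log2 fold change of 16 genes changed sign. These fits did not use the pairs, and the number of the library left out stayed in the other treatment. They therefore do not measure the spread of the paired differences. Compared within replicate numbers, 13 genes were higher with Nutlin-3a in all 3 pairs, against 15% of all genes, and 2 (SQLE and SREBF1) lower in all 3, against 17.7%. The 13 were ACAT2, PMVK, MVD, FDPS, FDFT1, CYP51A1, MSMO1, HSD17B7, EBP, SREBF2, STARD4, FASN and FADS2. By role the medians were 0.08 for the mevalonate steps, 0.04 for squalene and lanosterol formation, 0.13 from lanosterol to cholesterol, 0.11 for SREBP control and 0.13 for fatty acid genes.

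The genes that had passed in G12V cells stood close to their controls here. FADS1 was annotated here at chr11:61578297-61596790, an interval other than that of the untreated experiment. More of it overlaps FADS2 (here chr11:61583727-61634826), so its counts in the experiments do not cover the same stretch. FADS1 was at 73.6, 84.7 and 79.6 CPM with DMSO and at 100.5, 85.9 and 75.4 CPM with Nutlin-3a. INSIG1 was at 80.8, 72.2 and 113 CPM with DMSO and at 92.9, 87.4 and 109 CPM with Nutlin-3a. Both overlapped between groups, with log2 fold changes of 0.14 (95% confidence interval -0.15 to 0.43) and 0.12 (-0.28 to 0.52). SREBF2 was at 252, 257 and 297 CPM against 282, 271 and 316, and SREBF1 at 80.8, 55.3 and 72.9 against 64.0, 51.7 and 71.5. Of the further pathway genes, 55 of 57 were tested. By edgeR's quasi-likelihood test, its exact test or DESeq2, 0 were called, against 0.17%, 0.613% and 0.65% of all genes. An unadjusted p under 0.05 was found for 0, against 3.42% of all genes by the quasi-likelihood test.

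The precision of this comparison differed between genes and depended on whether libraries were paired by replicate number. HMGCS1 had a log2 fold change of -0.02 with a 95% confidence interval of -1.12 to 1.08, and of 0.06 with one of -0.13 to 0.26 when the replicate number was a block. For SCAP the intervals were -0.13 to 0.32 and -0.08 to 0.26. CYP51A1 was counted at 17.4 to 27.2 CPM here and at 290.1 to 459.8 CPM in the untreated table. The tables list different gene sets, and in the present one CYP51A1 shares its strand with the overlapping LRRD1, so levels were not compared between the tables.

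What varied in the treated experiment was the replicate number. HMGCS1 was at 76.9, 95.2 and 251 CPM with DMSO and at 87.2, 110.4 and 219.7 CPM with Nutlin-3a. The third library of each treatment held more than any of the others. Library 3 was 2.91 times the mean of libraries 1 and 2 with DMSO and 2.22 times with Nutlin-3a.

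In a fit with treatment and replicate number, the number passed at an adjusted p under 0.05 for 22 of the 31 genes by edgeR's quasi-likelihood test, against 24.5% of all genes tested. This test was added after the values had been seen. It passed for 6 of the 7 genes of the mevalonate steps (PMVK did not), for all 3 of squalene and lanosterol formation, for 6 of the 8 from lanosterol to cholesterol (HSD17B7 and EBP did not), for 2 of the 5 of SREBP control (SREBF1 and INSIG1) and for 5 of the 8 fatty acid genes (ACACA, FADS1 and LPIN1 did not). SREBF2 itself had an adjusted p of 0.123 and SCAP one of 0.610 in that test.

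For 21 of the 31 genes the third library was the highest in both treatments, against 23.4% of all genes. IDI1 was at 154, 156 and 285 CPM with DMSO and at 152, 167 and 301 CPM with Nutlin-3a. LSS was at 101, 106 and 181 CPM against 102, 102 and 196, and MVD at 85.9, 73.9 and 138 against 90.1, 86.8 and 192. In each of these genes libraries 1 and 2 were close and library 3 stood above them. FADS2 passed by another pattern, with its lowest values in library 2 of each treatment (69.4, 43.8 and 77.0 CPM against 76.7, 44.8 and 87.1).

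The summed level of the list was 4394, 4356 and 6183 CPM with DMSO and 4934, 4549 and 6506 CPM with Nutlin-3a. The labels do not say what the numbers stand for. Cell-type markers moved with the number as well: 5 of the 6 epithelial markers (DSP did not) and 3 of the 5 mesenchymal ones (VIM, CDH2 and FN1) passed the same test. The summed epithelial level was 5122, 3780 and 6286 CPM with DMSO and 5922, 4044 and 6555 CPM with Nutlin-3a, and the summed mesenchymal level was 1621, 3820 and 2556 against 1951, 3580 and 2200. The epithelial sum, like that of the list, was highest in library 3 of each treatment, with library 2 the lowest, and the mesenchymal sum was highest in library 2. The leukocyte, endothelial and adipocyte markers found in this table, 5 of 6, stayed under 1 CPM throughout, with PTPRC and ADIPOQ at 0 in every library. The part of any of these in the pattern was not tested.

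**Figure D3:**
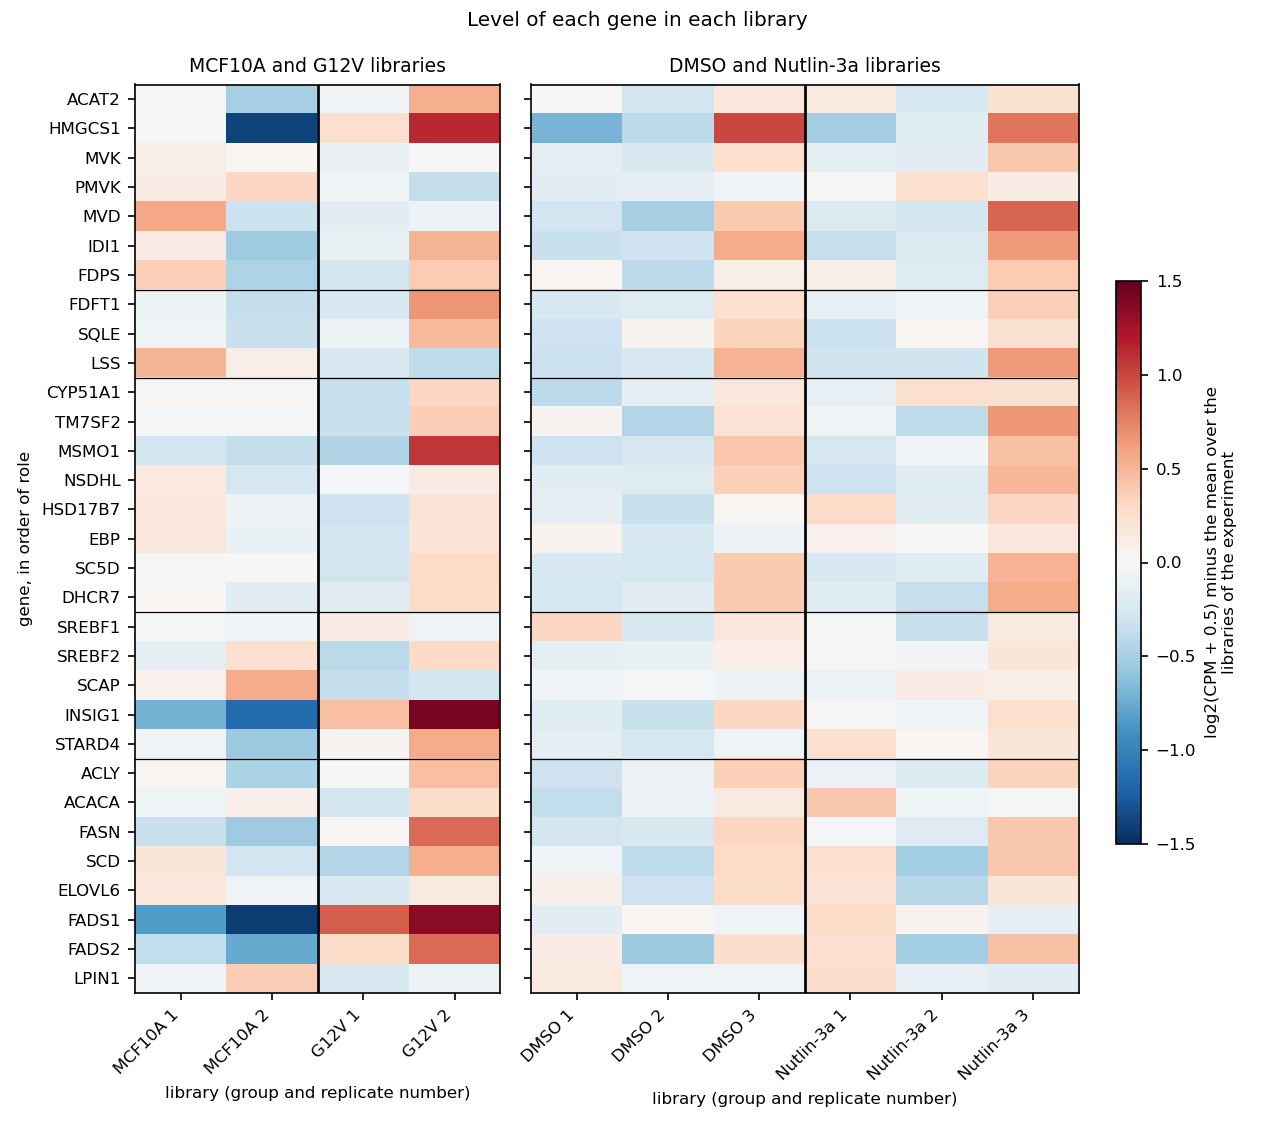
Level of the 31 genes (rows, in order of role, with lines between roles) in each library (columns), as log2(CPM + 0.5) minus the mean over the libraries of that experiment, from blue (lower) to red (higher). G12V replicate 2 is the highest of its 4 libraries for 22 genes, and DMSO 3 and Nutlin-3a 3 are the highest of their treatments for 21.

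The differences between libraries of the same group were also set side by side across genes. Across the 31 genes the log2 ratio of library 3 to the mean of libraries 1 and 2 with DMSO had a Pearson correlation of 0.83 with the same ratio for Nutlin-3a, against 0.71 across the 12071 genes in both tables. The log2 ratio of MCF10A replicate 1 to 2, from cells of the other experiment, had a correlation of 0.64 with the DMSO ratio (Spearman's 0.41), against 0.03 across all shared genes. HMGCS1 had the greatest of the 31 ratios in both. The ratio of MCF10A replicate 1 to 2 had a correlation of 0.53 with the Nutlin-3a ratio (Spearman's 0.38), against 0.07 across all shared genes. HMGCS1 had the greatest Nutlin-3a ratio as well, and its weight in these correlations was not tested. That of G12V replicate 2 to 1 had 0.34 with the DMSO ratio (against -0.09), 0.12 with the Nutlin-3a ratio (against -0.15) and 0.23 with the MCF10A ratio (against -0.56). Each ratio was written with the library that was higher for most of the 31 genes on top, so its signs follow from that choice. The MCF10A and G12V ratios thus run in opposite orders of replicate number. The -0.56 over all shared genes therefore has the opposite sign to the correlation of same-numbered libraries (0.49). Genes of a route are not independent replicates and all values of a library share its preparation, so these correlations are descriptions over 31 genes.

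**Figure D4:**
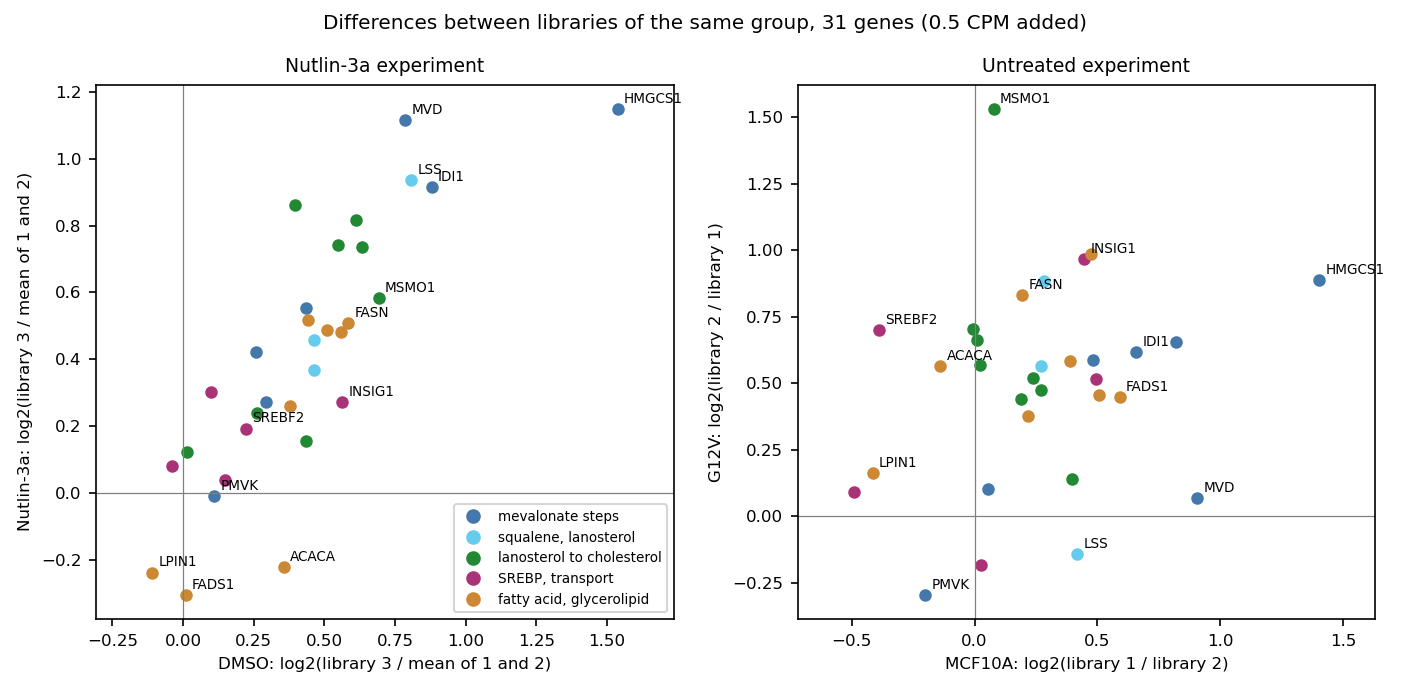
Log2 ratio between libraries of the same group for each of the 31 genes, after adding 0.5 CPM: library 3 over the mean of libraries 1 and 2 with DMSO (horizontal) and Nutlin-3a (vertical) on the left, and MCF10A replicate 1 over 2 (horizontal) and G12V replicate 2 over 1 (vertical) on the right, coloured by role. The ratio was above 0 for 29 genes with DMSO, 27 with Nutlin-3a, 25 in MCF10A and 28 in G12V, each ratio having been written with the library higher for most genes on top.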

How the data were processed

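Poly(A)-selected RNA was sequenced from MCF10A (n = 2), G12V (n = 2), DMSO (n = 3) and Nutlin-3a (n = 3) cells. The authors aligned reads to hg19 with TopHat and counted them per gene with HTSeq; the deposited values are raw counts, in a table for each experiment. Annotation, strand setting and overlap mode are not given in the sources used here, so antisense, overlapping and duplicated genes may share reads. Counts were analysed within each table with edgeR 4.0.16 in R 4.3.3: filterByExpr, TMM factors, quasi-likelihood F-test and Benjamini-Hochberg adjustment over all genes tested, called at adjusted p under 0.05 and absolute log2 fold change above 0.5. CPM values use TMM-scaled library sizes, and fitted fold changes a prior count of 0.125. The test was checked on simulated data. Total counts ran from 15453226 to 23683975 per library, so spread between libraries and not counting error limits most values.

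All 31 members are named, related genes are named when called, and cell type markers and HRAS, MDM2 and CDKN1A serve as checks, with exceptions given at the gene. Members and lists were chosen with earlier results of these data known. In the Nutlin-3a experiment libraries with the same number deviated together (correlations 0.62, 0.60 and 0.64, against -0.47 to -0.19 for others), and the replicate block is given as an alternative. Other alternatives were DESeq2 1.42.0, the exact test, other scaling factors and filters, a prior count of 2, another threshold and leaving out each library.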

Additional observations from a re-analysis of the deposited data

How the results depend on the processing

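With the replicate number as a block, 0 of the 31 genes were called after Nutlin-3a, as without it. Of all genes, 0.702% were called higher and 0.517% lower with the block. The adjusted p of STARD4 was then 0.0968 by edgeR's quasi-likelihood test. In the untreated experiment the labels give the 2 pairs only a shared number, yet libraries of the same number deviated together over all genes (correlation 0.49). In a fit with group and number, the number passed at an adjusted p under 0.05 for 1 of the 31 genes, SREBF2, by edgeR's quasi-likelihood test. The share over all genes tested was 13.3%. With RLE factors or library totals alone it passed for 0 of the 31 (against 5.78% and 7.8% of all genes), and with DESeq2 for 1 (against 6.68%). The block in the untreated experiment gave 8 calls, 6 higher (FADS1, FADS2, FASN, HMGCS1, INSIG1 and STARD4, against 14.4% of all genes) and 2 lower (LSS and SCAP, against 14.5%). Among the 57 related genes it gave 18 calls in place of 7, with 11 higher and 7 lower, beside the same shares of all genes. For G12V against MCF10A, DESeq2 called 5 genes (FADS1, FADS2, FASN, HMGCS1 and INSIG1), a threshold of unadjusted p under 0.05 and fold change over 1.3 passed 7, 5 higher and 2 lower (against 12.7% and 12.8% of all genes), and the exact test, upper-quartile factors, library totals alone and a filter at 1 CPM each called 3, all higher, adding FADS2 (against 8.53%, 5.06%, 5.59% and 5.8% of all genes higher). Leaving out 1 library gave 0 to 5 members and 0 to 8 related genes called, with the lowest counts in the fit without MCF10A replicate 1, where no gene of the table was called. The role medians then ran from -0.18 to 0.56 for the mevalonate steps, -0.015 to 0.68 for squalene and lanosterol formation, -0.31 to 0.29 from lanosterol to cholesterol, 0.11 to 0.24 for SREBP control and -0.053 to 0.61 for fatty acid genes, and the median of gene minus neighbourhood (0.08 with all libraries) from -0.23 to 0.38. FADS1 and INSIG1 were called in all 9 settings that kept every library. Among the 9, a prior count of 2 alters the fitted fold change and not the test, so it adds no check. After Nutlin-3a every setting called 0 members, where few of all genes were called either (0.65% with DESeq2 and 0.0512% without DMSO replicate 1, for example). Leaving out 1 library moved the role medians to -0.13 to 0.28, -0.19 to 0.28, -0.16 to 0.33, 0.04 to 0.19 and -0.06 to 0.26 in the same order. The replicate number passed for 23 members with RLE factors (background 25.2%), 21 with DESeq2 (14.9%), 23 without both libraries numbered 1 (30.1%), 14 without those numbered 2 (19.2%) and 8 without those numbered 3 (14.8%). This test, and the alternatives for role medians, related genes and neighbourhoods, were chosen after seeing the data. With 2 or 3 libraries a group the spread between them limits every comparison, and no transformed cells were treated.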
